A study of Caenorhabditis elegans with 2 samples.

Results

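The 7 genes described here encode subunits of SNAPc, the complex that activates small nuclear RNA (snRNA) genes, in Caenorhabditis elegans: snpc-4, snpc-3.4, snpc-3.2, snpc-3.1, snpc-1.3, snpc-1.2 and snpc-1.1. They were taken by symbol from the WBcel235 annotation, where all 7 were matched among 19973 nuclear protein-coding genes. The profiles are chromatin immunoprecipitation and sequencing (ChIP-seq) of one of these subunits, SNPC-3.4, in strain YL497. This is a transgenic line in which SNPC-3.4 carries GFP-FLAG at its C terminus, and the fusion was precipitated with an anti-GFP antibody from whole hermaphrodites at the young adult stage (age not stated). The 2 samples are biological replicates 1 and 2 of this 1 group, so there is no contrast between conditions, and both carry the tag. The labels call the line an insertion that targets snpc-3.4 and do not say whether it replaced the gene or added a copy. An added copy would also raise the reads at snpc-3.4 and at any flanking sequence it carried. In these lists that cannot be told apart from binding there. Whole worms mix germline and somatic nuclei, so a signal cannot be given to a tissue.

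SNAPc binds a promoter element upstream of snRNA genes and recruits RNA polymerase II or III to them. In human cells its core is made of SNAPC1, SNAPC3 and SNAPC4, and the worm has several genes for the first and second of these, named snpc-1 and snpc-3, but a single snpc-4, whose product carries the Myb-type DNA-binding repeats. In the worm germline SNPC-4 also acts with PRDE-1, TOFU-4 and TOFU-5 at piRNA genes, and SNPC-1.3 is known for piRNA transcription in the male germline. The question asked of these data is where the tagged SNPC-3.4 was found at the genes of its own complex.

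Each gene was given a window from 1000 bp upstream of its annotated 5' end to its 3' end, and every region whose summit fell there was recorded. The authors' candidate lists hold 30000 regions in each of 3 lists, those of replicate 1, replicate 2 and both pooled, most of them weak, and the thresholded list holds the 2101 highest of the pooled list. Signal is the value that the authors' peak caller gave to a region. Its scale is not stated and differs between lists (median 11.1 in replicate 1, 15.0 in replicate 2 and 23.9 in the pool), so place by signal within a list and the ratio to that list's median are given beside it. Depth is unknown because the lists hold no read counts.

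The tagged gene had the strongest regions of the 7. snpc-3.4 and snpc-4, the gene of the Myb-type subunit, had a thresholded region, and the other 5 genes had none. Over all protein-coding genes 10.6% had a thresholded region in the same kind of window, 2115 of 19973. With so few genes and no test, 2 of 7 is a count and no more.

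Sequence is shown for both thresholded regions of snpc-3.4, which carry the main finding, and for the shared upstream region of snpc-1.1 and spdl-1, where a weak region had a nearby summit in 1 replicate only. Each is written 5' to 3' on the strand of the SNAPc gene, from the WBcel235 genome, with the 11 bases centred on the pooled summit in capitals. The first ends at the base before the annotated 5' end of snpc-3.4. The rest of that region, which runs on inside the gene to 4020138, is not shown. The second lies in exons 4 and 5 and the intron between them. The last is the whole stretch between the 5' ends of snpc-1.1 and spdl-1.
snpc-3.4 upstream (chrIII:4019839-4020036, plus strand): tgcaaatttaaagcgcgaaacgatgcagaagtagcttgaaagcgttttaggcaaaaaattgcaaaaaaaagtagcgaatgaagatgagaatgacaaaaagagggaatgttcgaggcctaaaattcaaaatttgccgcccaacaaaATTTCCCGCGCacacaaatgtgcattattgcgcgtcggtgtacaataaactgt
snpc-3.4 inside the gene (chrIII:4020649-4020948, plus strand): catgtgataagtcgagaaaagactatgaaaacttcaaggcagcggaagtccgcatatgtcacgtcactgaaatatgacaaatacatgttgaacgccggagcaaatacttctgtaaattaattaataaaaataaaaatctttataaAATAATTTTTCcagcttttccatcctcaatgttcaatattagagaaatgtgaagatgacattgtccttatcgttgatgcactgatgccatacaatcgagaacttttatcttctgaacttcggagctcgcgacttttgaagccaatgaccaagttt
snpc-1.1 upstream (chrII:7781302-7781565, minus strand): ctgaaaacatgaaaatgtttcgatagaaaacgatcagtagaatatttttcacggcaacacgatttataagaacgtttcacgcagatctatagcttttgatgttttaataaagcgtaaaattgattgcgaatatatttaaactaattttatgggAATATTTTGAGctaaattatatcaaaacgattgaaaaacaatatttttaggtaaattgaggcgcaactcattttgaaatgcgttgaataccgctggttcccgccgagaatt

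At snpc-3.4 (WBGene00011367; III, 4020037 to 4021883, plus strand), a SNAPC3 homologue and the gene of the precipitated protein, the highest region had its summit 48 bp upstream of the 5' end. Its signal was 71.3 in replicate 1, where it held place 130, and 107 in replicate 2, where it held place 158. The mean was 89.4 ± 25.5 (SD, n = 2), and on the scale of each list's median the ratios were 6.41 and 7.15. The raw difference between the replicates therefore largely followed the scales of their lists. In the pool the signal was 179 at place 133, and 130 protein-coding genes had a higher region in their windows. Genes whose highest region was as high or higher, snpc-3.4 included, made up 0.656% of all protein-coding genes.

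**Figure D1:**
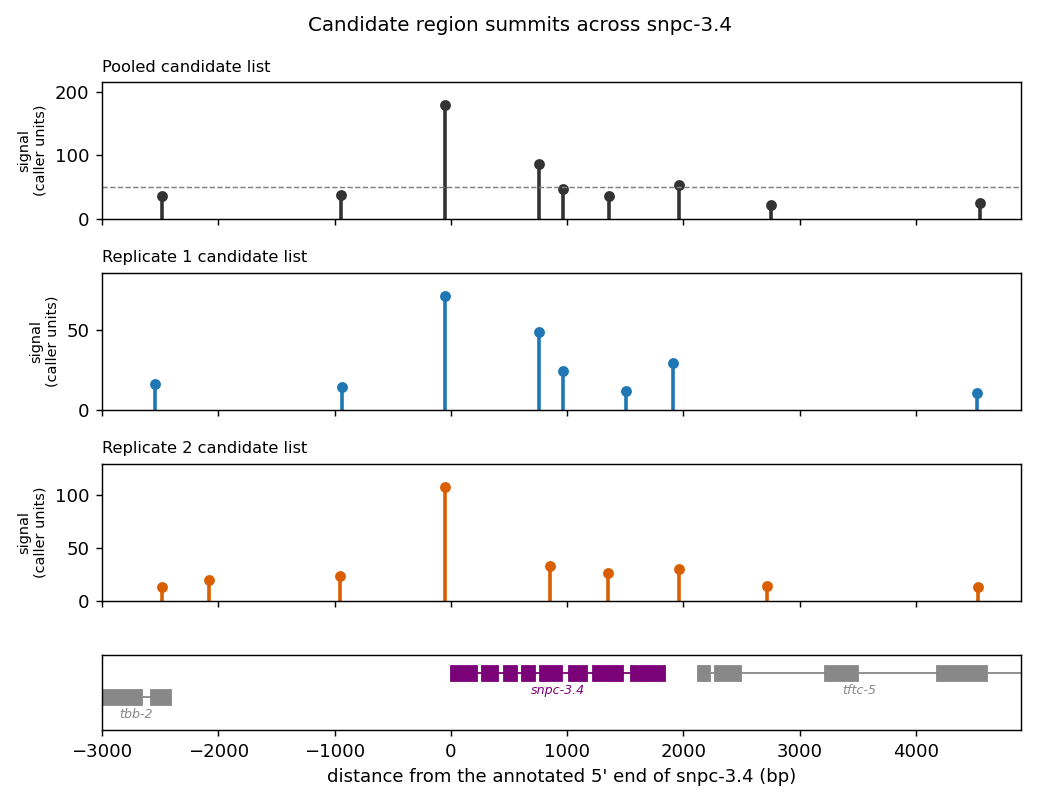
Summits of candidate regions around snpc-3.4 by distance from its annotated 5' end (x axis, bp) and signal in caller units (y axis, a separate scale for each list), with exons of neighbouring protein-coding genes below (those on the opposite strand set lower). The dashed line is the lowest thresholded signal, 50.8; the region 48 bp upstream is the highest in all 3 lists, and 3 thresholded regions lie between 48 bp upstream and 1965 bp downstream of the 5' end.

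The upstream summit was placed alike in both libraries. The nearest summit of replicate 1 lay 1 bp away and that of replicate 2 lay 3 bp away. Over the 2075 nuclear thresholded regions the median distances were 11 bp and 9 bp, and 27.2% had summits of both replicates within 10 bp. The replicates feed the pool, so these distances show placement and are not independent of the pooled summit.

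A second thresholded region lay inside snpc-3.4. Its summit was 762 bp inside, in intron 4 (III, 4020760 to 4020807), a 48 bp intron, and its pooled signal was 86.4 at place 725. In replicate 1 the summit was at the same base, with a signal of 48.9 at place 326. In replicate 2 the nearest region peaked 89 bp farther downstream, in exon 5, with a signal of 33.1 at place 2027. Both were among the 2101 highest of their replicate, but as ratios to the list medians, 4.39 and 2.20, replicate 2 was lower. Among all protein-coding genes 0.826% had 2 or more thresholded regions in the window (165 of 19973). A region this high at least 250 bp inside the gene was found at 174 genes, snpc-3.4 among them, or 0.871% of all, a share that includes the many genes with no region this high anywhere in their window.

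Further candidates continued along the gene. In the pool snpc-3.4 had 5 candidate regions, a number that 4.74% of protein-coding genes reached. Besides the thresholded pair these lay at 946 bp upstream (signal 36.9, place 4179), at 961 bp inside (47.3, place 2413) and at 1358 bp inside (35.6, place 4587). The last is also in the window of the next gene downstream, tftc-5, whose 5' end is nearest to it, 771 bp away. The region at 961 bp overlaps the thresholded one at 762 bp, so the 5 are not all separate. The one at 961 bp stood just outside the threshold, since the lowest thresholded signal was 50.8. It was among the 2101 highest in replicate 1, with 24.2 at place 1614, and replicate 2 had no separate summit there. Each of the 5 regions of replicate 1 overlapped 1 of the 4 regions of replicate 2 by at least 1 bp. Those at 762 and 968 bp inside overlapped the same region of replicate 2. The share over all candidate regions was not counted.

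The next region downstream lay between snpc-3.4 and a gene of the RNA polymerase III system. tftc-5, which encodes a subunit of TFIIIC, the factor that binds inside tRNA genes, starts 282 bp beyond the 3' end of snpc-3.4 on the same strand. A thresholded region peaked in the gap, 119 bp past snpc-3.4 and 164 bp upstream of tftc-5, with a pooled signal of 52.6 at place 1962. Replicate 1 had 29.5 at place 1050 and replicate 2 had 30.04 at place 2483, so it was among the 2101 highest in replicate 1 only. Within tftc-5 the pooled candidates fell to 22.6 and 25.5, near the median of the list, 23.9. An added copy of snpc-3.4 with flanking sequence could raise the region in the gap too, which cannot be told apart here.

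The wider surroundings of snpc-3.4 differed little in number of pooled candidates from those of several other members once its own window was set aside. Outside the window but within 20 kb it had 16 pooled candidates, against 15 at snpc-1.1, 14 at snpc-1.2, 13 at snpc-3.1 and 9 to 11 at the other 3 genes. Thresholded regions there numbered 3 at snpc-3.4, 2 at snpc-3.1, 1 at snpc-4 and 0 at the other 4. With the windows included, within 20 kb on both sides of snpc-3.4 there were 21 pooled candidates, or 5.02 per 10 kb, against 2.37 to 4.05 per 10 kb around the others and 2.99 over the nuclear genome. Thresholded regions then numbered 5 in 41.8 kb, and 2 each around snpc-4 (43.8 kb) and snpc-3.1 (42.2 kb). Over the nuclear genome they numbered 0.207 per 10 kb. Of the 5, the pair farther upstream lay 4.22 kb away, 1811 bp from the 5' end of the beta-tubulin gene tbb-2 and within 250 bp of the piRNA gene 21ur-13952 (signal 66.3, place 1218), and 15.7 kb away, 250 bp from the 5' end of tif-1A, which encodes an RNA polymerase I initiation factor (signal 107, place 439). The snoRNA gene C36E8.11 also starts within 250 bp of that last summit. It is nearer to the summit than tif-1A, so the region may not belong to tif-1A. The candidates within 20 kb but outside the window of snpc-3.4 had a median signal of 25.7, and the corresponding medians at the other genes ran from 22.4 to 29.7. These are single loci, and no test was made.

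**Figure D2:**
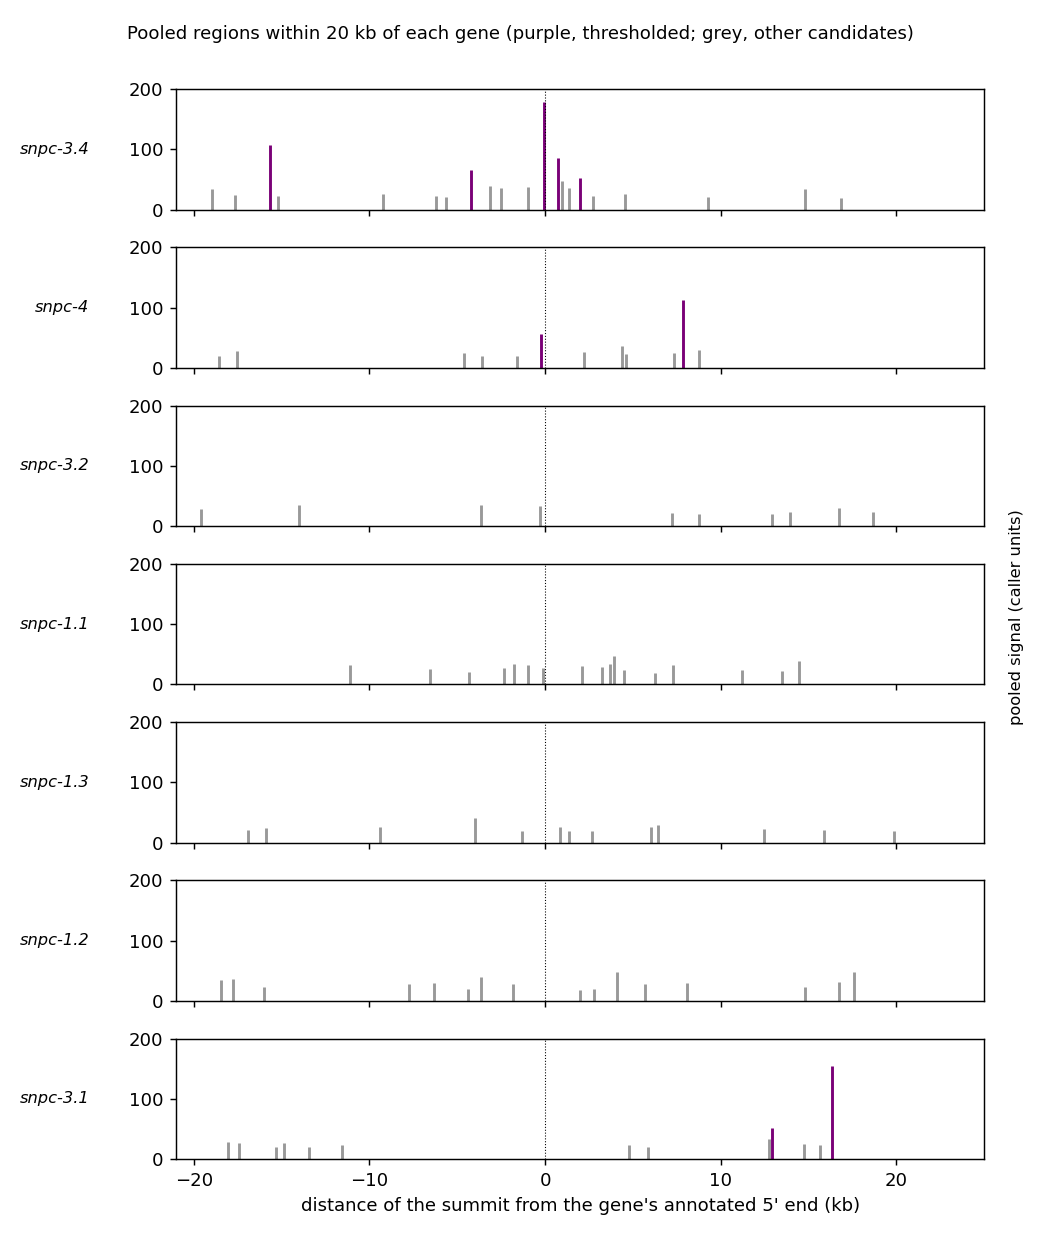
Pooled signal in caller units (y axis, same scale in each panel) of every pooled candidate region within 20 kb of each gene, by distance of its summit from the gene's 5' end (x axis, kb). Purple lines are thresholded and grey lines are other candidates; snpc-3.4 has 5 purple lines, snpc-4 and snpc-3.1 have 2 each, and the other 4 genes have none.

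At snpc-4 (WBGene00001568; I, 8962322 to 8966129, plus strand), which encodes the Myb-type subunit, the libraries differed. Replicate 2 had a signal of 41.6 at place 1313, with its summit 231 bp upstream of the 5' end. Replicate 1 had 13.3 at place 9002, close to its list's median of 11.1, with its summit 302 bp upstream. The pooled region had 55.8 at place 1739, with its summit at the same base as that of replicate 2. The thresholded region of snpc-4 thus rests on replicate 2, and with the 2101 highest regions of replicate 1 alone only snpc-3.4 was left among the 7 genes. Of all protein-coding genes 8.85% had a pooled region as high or higher. A weak candidate inside the gene, 2214 bp from the 5' end with a signal of 25.9 at place 11831, had a counterpart in replicate 2 (14.6, place 16080) and none in replicate 1.

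The other SNAPC3 homologues had weak regions or none. snpc-3.2 (WBGene00021667; I, 252107 to 254294, plus strand) had 1 pooled candidate, 273 bp upstream, with a signal of 34.1 at place 5203. Its replicates had 9.71 at place 21180 and 17.1 at place 10457, and their summits lay 233 and 292 bp upstream. The regions of the replicates overlapped, with summits 40 and 19 bp from the pooled one. Their signals were close to the list medians, at ratios of 0.873 and 1.14. Of the 31-base words in this region 76.3% occur once in the genome, the lowest share among the candidates of the 7 genes, and all 5 regions of snpc-3.4 had 100%.

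snpc-3.1 (WBGene00015098; IV, 5484039 to 5486258, minus strand) had no candidate region in its window in any of the 3 lists. The nearest pooled summit lay 4807 bp from its 5' end, and those of replicates 1 and 2 lay 4742 and 5893 bp away. A region here would have been left out of the lists with a signal under about 18.3 in the pool, 8.14 in replicate 1 or 11.1 in replicate 2, the lowest values listed. Words that occur once in the genome were counted at candidate regions only. How well reads can be placed in this window is therefore not known, and the empty window is not a measure of low occupancy. The closest thresholded regions were 12.9 and 16.3 kb away, the latter 92 bp from the 5' end of rme-2, the yolk receptor gene.

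The SNAPC1 homologues had candidates below the threshold only. At none of them did the highest regions of the 2 replicates overlap. Among the members with a region in both, 3 of 6 overlapped, against 45.6% of all such genes. With so few genes this is a count and no more. snpc-1.1 (WBGene00015513; II, 7779297 to 7781301, minus strand) shares its upstream region with spdl-1, a kinetochore gene that starts 264 bp away on the opposite strand. In the pool a region peaked 106 bp upstream, with a signal of 27.6 at place 9695. Replicate 1 had 19.3 at place 2918 with a summit 28 bp upstream, whereas the nearest summit of replicate 2 was 998 bp from the 5' end. The highest pooled region in the window, 32.6 at place 5887, lay 991 bp upstream, inside spdl-1 and 726 bp from its 5' end. Replicate 2 had 18.8 at place 8025 within 7 bp of that summit, and replicate 1 had a summit within 18 bp of it, just beyond the window.

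snpc-1.3 (WBGene00017265; V, 5437084 to 5439168, minus strand), the subunit gene known from the male germline, had no candidate upstream or within the first 250 bp in any list. Its highest pooled region peaked 876 bp inside, in coding sequence, with 25.2 at place 12706. Replicate 1 had 18.1 at place 3495 within 24 bp of that summit. Replicate 2 had its only region of the window 2014 bp inside, in the 3' UTR (17.9, place 9082). No pooled region of snpc-1.3 therefore had a nearby summit in both replicates.

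snpc-1.2 (WBGene00012715; III, 13165659 to 13169541, minus strand) had the lowest highest signal of the 6 genes in the pooled list, although snpc-3.2 was lower in both replicates. The pooled ones had signals of 20.2 at place 23950, in an intron, and 18.7 at place 28805, in coding sequence. In replicate 1 the highest of 4 regions had 12.3 at place 11380, 418 bp inside, and in replicate 2 the highest of 3 had 18.2 at place 8809, 2008 bp inside. The highest regions of the replicates were thus at different places, though each pooled summit had a summit of 1 replicate within 12 bp.

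**Figure D3:**
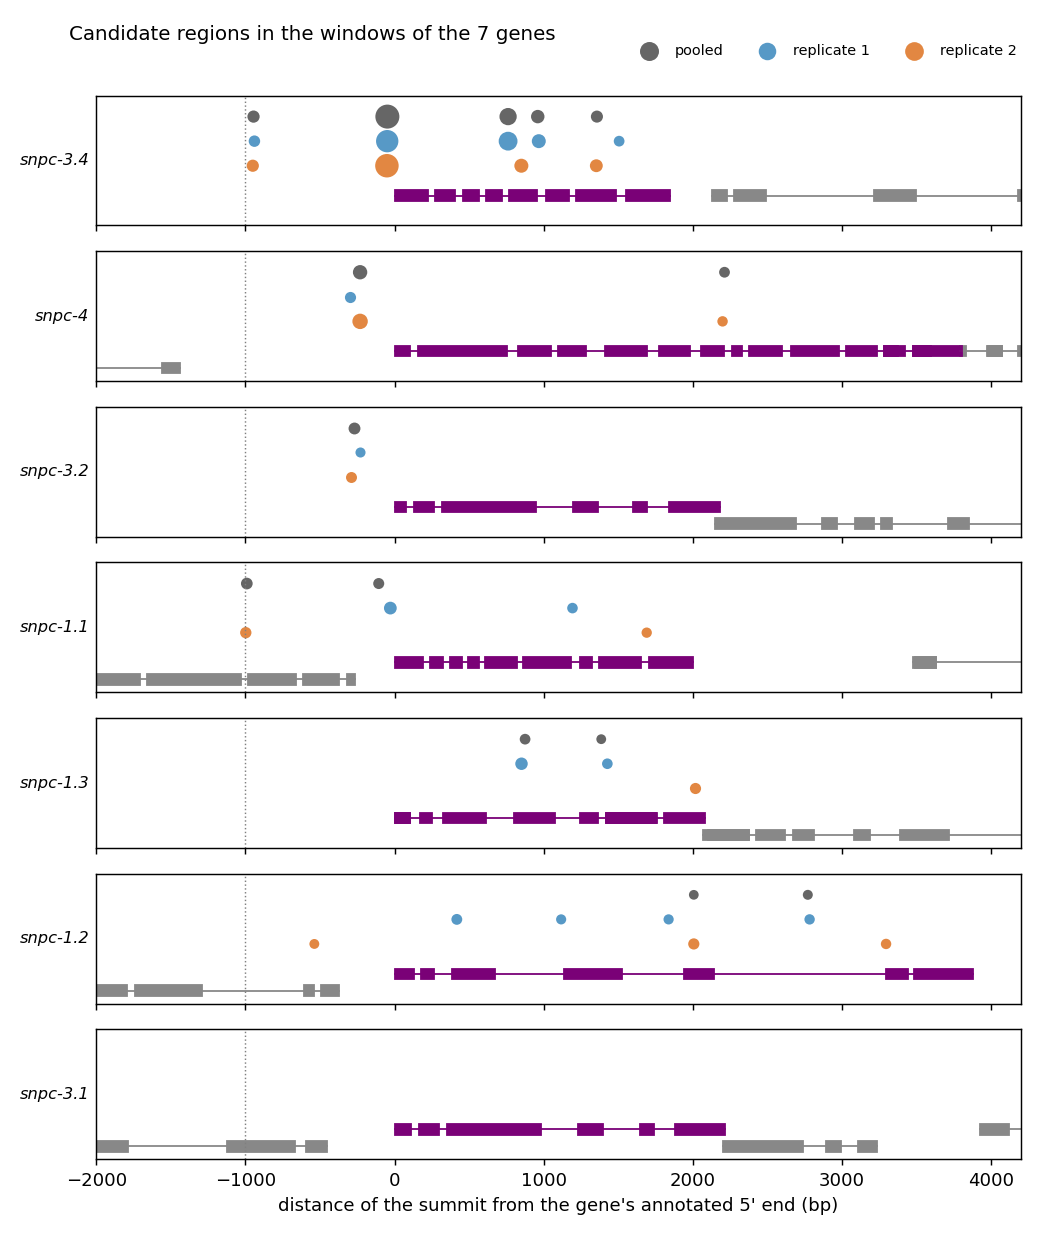
Summits of candidate regions in the window of each of the 7 genes by distance from the gene's 5' end (x axis, bp), with 1 row of points for each list and point area rising with the ratio of the signal to the list's median. Exons of the gene are purple, those of neighbours grey (set lower when on the opposite strand), and the dotted line is the upstream limit of 1000 bp; only snpc-3.4 has large points in all 3 lists, and snpc-3.1 has none.

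Having some candidate region was common. In the pool 6 of the 7 genes had 1, against 63.9% of all protein-coding genes. The same 6 had 1 in replicate 1, against 63.6%, and in replicate 2, against 64.5%. In a promoter window from 1000 bp upstream to 250 bp inside, the pooled list held regions for snpc-1.1, snpc-3.2, snpc-3.4 and snpc-4, or 4 of 7 against 43.4% of genes, and thresholded regions for snpc-3.4 and snpc-4 against 8.38%. The median highest pooled signal was 33.4 over the 6 genes and 28.2 over the 12770 genes with a candidate. The windows of the 7 genes had a median of 3188 bp and those of all genes 3027 bp.

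Only snpc-3.4 stood clear of the other genes in both replicates. As ratios to the list medians, its replicates, at 6.41 and 7.15, lay above both replicates of every other member. snpc-4 followed with 1.19 and 2.77, a mean of 1.98 ± 1.12 (SD, n = 2). snpc-1.1 had a mean of 1.49 ± 0.341 (SD, n = 2), snpc-1.3 1.41 ± 0.305 (SD, n = 2), snpc-1.2 1.155 ± 0.0750 (SD, n = 2) and snpc-3.2 1.00 ± 0.186 (SD, n = 2). From snpc-4 down, the replicate values of each gene overlapped those of its neighbours in this order, so neighbours did not differ beyond the spread of the replicates. The highest regions of the replicates overlapped at snpc-3.2, snpc-3.4 and snpc-4, or 3 of the 6 genes with regions in both, and at 45.6% of the 10105 such genes in the genome.

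**Figure D4:**
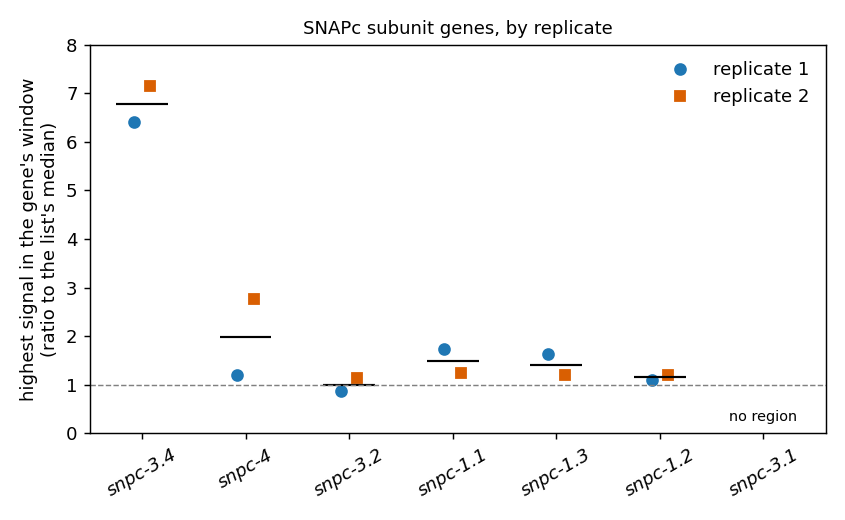
Highest signal in each gene's window as a ratio to the median of that replicate's list (y axis), with circles for replicate 1, squares for replicate 2 and a bar at their mean. The dashed line marks the list median; snpc-3.4 lies at 6.41 and 7.15, every other gene with a region lies at or below 2.77, and snpc-3.1 had no region.

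**Figure D5:**
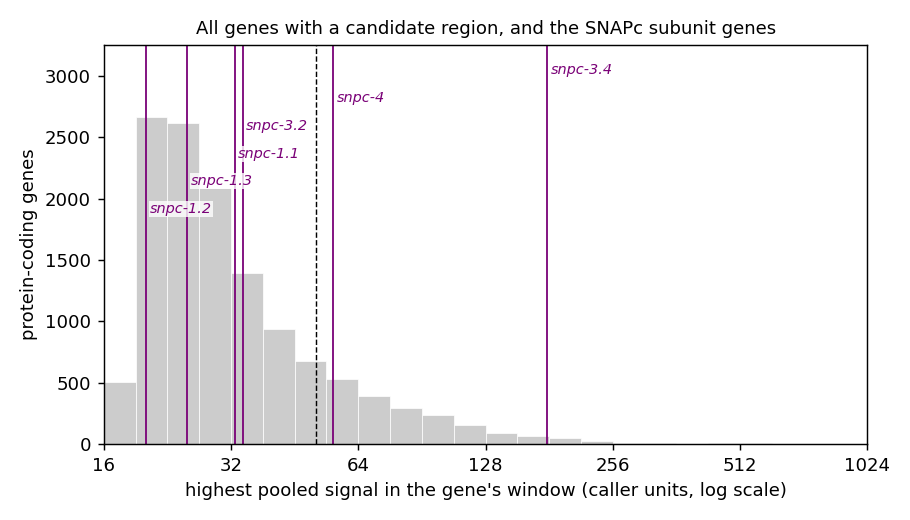
Number of protein-coding genes (y axis) by the highest pooled signal in their window (x axis, caller units, log scale), for the 12770 genes with a candidate region. Purple lines are the SNAPc subunit genes with a region and the dashed line is the lowest thresholded signal, 50.8; snpc-4 lies just above that line at 55.8 and snpc-3.4 far in the upper tail at 179.

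The thresholded regions of snpc-3.4 and snpc-4 lay far from annotated snRNA, snoRNA and tRNA genes. The nearest annotated 5' end of an snRNA, snoRNA or tRNA gene lay 15554 bp from the upstream summit, that of C36E8.11. At snpc-4 the nearest was a tRNA gene 8922 bp away. Of the nuclear thresholded regions 22.8% had such a 5' end within 250 bp, 474 of 2075. No other protein-coding gene's window held either thresholded summit of snpc-3.4 or that of snpc-4.

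Short sequences were looked up, on both strands, in the 250 bp before to 50 bp after each 5' end and within 150 bp of summits. CTGTTTCA, known from the upstream regions of worm piRNA genes, was in none of the 7 promoters and near none of the 14 pooled summits in their windows. It was in 2.32% of all promoters and near 1.16% of nuclear thresholded summits. Of the 14 pooled summits only 2 at snpc-3.4 and 1 at snpc-4 are thresholded. Shares at thresholded summits, here and for the other words, thus come from a stricter set. GTTCGA, part of the B box of tRNA genes, was in the promoters of snpc-3.4 and snpc-4 and in 9.85% of all promoters. At snpc-3.4 it lay 91 to 86 bp upstream of the 5' end, and it can be read in the first sequence above. GTTCGA occurred near 22.7% of nuclear thresholded summits, a class that includes tRNA genes. It was near 4 of the 14 pooled summits in the windows of the 7 genes. These were 48 bp upstream and 961 bp inside at snpc-3.4, 231 bp upstream at snpc-4 and 2773 bp inside at snpc-1.2, a weak region. The thresholded summit 762 bp inside snpc-3.4 did not have it.

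GCGAGACC and AAAGGCGC, words found earlier in these same peaks, were near 7.90% and 8.72% of nuclear thresholded summits. GCGAGACC was near none of the 14 pooled summits in the windows of the 7 genes, though it was in the promoters of snpc-1.2 and snpc-1.3 (1.32% of all promoters). AAAGGCGC was near the summit of snpc-3.2 only and in 1.67% of all promoters. TATAA was in the promoters of snpc-1.1 and snpc-1.2 and in 57.8% of all promoters, and it was near 5 of the 14 pooled summits and 46.8% of nuclear thresholded summits. The capitals of the first sequence hold TTTCCCGC, a form of the sequence that E2F factors are known to bind, 52 to 45 bp upstream of snpc-3.4. It was looked up after that sequence had been read. TTTCCCGC was in 1 of the 7 promoters and 1.57% of all, and near 4% of nuclear thresholded summits. The share of G and C within 150 bp was 37.9% at the upstream summit of snpc-3.4, 35.5% at the inner one and 42.2% at snpc-4, against a median of 37.2% over nuclear thresholded regions.

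Partners of the complex gave counts of a similar kind, in lists drawn up with earlier results known. Of 9 matched genes for piRNA transcription and piRNA factors, all 9 had a pooled candidate, against 63.9% of protein-coding genes, and 1 had a thresholded region, against 10.6%. This was attf-6, which encodes an AT-hook protein (signal 77.3, place 912, 371 bp upstream, with 36.5 and 36.6 in the replicates). The SNPC-4 partners prde-1, tofu-4 and tofu-5 had 28.2, 32.1 and 23.0 as their highest pooled signals. prg-1, the Piwi protein gene, had 47.2 at place 2421, just outside the threshold.

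A list of 12 genes held subunits of RNA polymerase III, TFIIIB and TFIIIC, and mafr-1, a regulator of the polymerase. Of these, 11 had a pooled candidate, all but mafr-1, against 63.9% of protein-coding genes, and 2 had a thresholded region, against 10.6%. Besides tftc-5 this was rpac-19, a subunit shared by RNA polymerases I and III (signal 72.8, place 1034, 161 bp upstream, with 33.6 and 34.7 in the replicates). tftc-5 lies next to the tagged gene, so the limit set by an added copy may hold for its region too. tbp-1 and brf-1, both of TFIIIB, had 38.7 and 45.2 in the pool and no thresholded region. The list's median was 38.7, against 28.2 over all genes with a candidate.

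Integrator, the complex that cuts snRNA 3' ends, had thresholded regions at 5 of 11 matched genes, against 10.6% of protein-coding genes, and all 11 had a candidate, against 63.9%. At ints-4 the region was 33 bp inside the 5' end (signal 102, place 493, with 38.8 and 76.98 in the replicates). At ints-5 it was 96 bp upstream (signal 63.0, place 1351, with 17.5 and 41.8). The others were not near the 5' end of the Integrator gene. The region in ints-8 (signal 353) is at rpr-1, the RNase P RNA gene that lies within it, the one in ints-9 (56.1) peaked 91 bp from the 5' end of ets-6, and that in ints-11 (56.5) lay 2184 bp inside, toward its 3' end. Several of these windows are long, 16016 bp at ints-8 and 16149 bp at ints-5, and a longer window takes in more regions.

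A further SNAPC1-type entry not among the 7 genes, R05F9.11, carries the RefSeq symbol snpc-1.4 and was picked out once its signal was known. Its highest pooled signal was 48.97 at place 2251, just outside the threshold, with 25.4 in replicate 1 and 29.9 in replicate 2 (II, 4911771 to 4914218).

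Among 2102 protein-coding genes with a thresholded region and values in both replicates, the ones most like snpc-3.4 in their highest log2 signals over the 2 replicates were fbxa-83, an F-box gene, Y73F8A.27 and usp-4, a deubiquitinase gene. Their distances in log2 signal were 0.022, 0.027 and 0.053. fbxa-83 had 70.7 and 109 in the replicates, and its summit lay 802 bp upstream of the gene and 64 bp from a snoRNA 5' end. Y73F8A.27 had 71.8 and 106, with its summit 219 bp upstream. usp-4 had 69.3 and 109.9, with its summit 657 bp upstream. These genes all lie on chromosome IV, and piRNA genes near their summits were not looked up, so the regions may not belong to the named genes. With 2 values per gene this likeness is one of level only.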

How the data were processed

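Peak lists on ce11, which is WBcel235, were used from 2 biological replicates of 1 group. Per the deposited notes, candidate lists were made by the authors per replicate and pooled, with a control, and the thresholded list is their optimal set by irreproducible discovery rate. The deposited signal per region has no stated scale. The deposited score column, which falls below 0 in candidate lists, was not used for any result. The aligner and peak caller are not stated in the labels or notes. The summit is the deposited offset from a region's start. Lists on ce10 and the control were not used here.

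Genes came from Ensembl release 115, with RefSeq symbols as a second source, and coordinates are 1-based. Windows were searched for summits, and the lookup was checked on simulated positions. The members, lists and motifs were chosen with earlier results of these data known, and no test was run. Named are the 7 genes, listed genes with a thresholded region, neighbours that share or adjoin a region, and the 3 genes nearest to snpc-3.4 in signal. Other listed genes (brf-1, tbp-1, mafr-1, prg-1, tofu-5, tofu-4, prde-1) and nearby genes (C36E8.11, rme-2, tbb-2, tif-1A, 21ur-13952) were named after their values were seen. The listed symbols tofu-3, snpc-3.3 and ints-12 were not matched by symbol. A planned comparison of the subunits' protein sequences was not made. Python 3.11.15, NumPy 2.4.6, pandas 2.3.3 and matplotlib 3.10.9 were used. Alternatives were other windows, region overlap, a stricter list, single replicates and ranks without mitochondrial regions.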

Additional observations from a re-analysis of the deposited data

How the results depend on the processing

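Of 42 values under alternative settings, 32 stayed within 1.5 times for counts, or within the replicates' SD for places, and 10 did not. That SD comes from the same 2 replicates, so places of genes whose replicates differ more pass more easily. The 32 is therefore not a measure of robustness. The 2 genes with a thresholded region fell to 1, snpc-3.4, among the 1000 highest pooled regions, and single replicates gave 1 to 2. The place of snpc-3.4 moved from 133 to 110 when mitochondrial regions were left out of the ranking, which by construction removes higher regions, and was 130 to 158 in single replicates. The other 6 moved places were 3 of snpc-1.2 and 1 each of snpc-1.3, snpc-3.2 and snpc-4, which stood at place 9002 without replicate 2, and the cause was not tested. The promoter window left 4 of 7 genes with a candidate and gave no place for snpc-1.2 and snpc-1.3. No paired analysis was possible because there is 1 group and no contrast. Weak occupancy is limited by the lists' lowest signals, and no read counts were in them.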
